A study of Mus musculus with 16 samples.

Results

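The genes described here are 10 mouse genes of the amino acid stress response: Atf4, the transcription factor at its centre, Asns, the serine synthesis genes Phgdh, Psat1 and Psph, the mitochondrial folate genes Shmt2 and Mthfd2, and the stress genes Ddit3, Trib3 and Chac1. They were chosen by name, with earlier results of these data known. Every probe set annotated to 1 of these symbols was taken, which gave 22 of the 22626 probe sets that are not controls. Of these, 21 entered the tests among 17736 probe sets. The remaining one, also of Atf4, stayed between 1.04 and 3.31 intensity units on all 16 arrays and was not tested. RNA of mouse embryonic stem (ES) cells was measured on Affymetrix MOE430A arrays, 1 array per sample, in 6 groups. The KO groups, with the genotype unr-/-, were growing cells (n = 3), cells 2 h after gamma irradiation (n = 3) and cells 24 h after it (n = 2), and the WT groups, unr+/+, had the same states and numbers. Both genotypes had the strain background given as mix 129/C56Bl/6 and came from single blastocysts of heterozygous crosses, and all cells grew with LIF on mitomycin-treated fibroblast feeders and were plated for 1 h on gelatin after trypsin to deplete those feeders. The dose was 8 Gy for the 2 h groups and is not given for the 24 h groups in the sources used here. No group was cultured for 24 h without irradiation, so irradiation and time in culture cannot be told apart. The sample titles carry experiment numbers, exp1 to exp3, but whether these were separate cultures is not stated, so the p-values measure sample-to-sample spread that may be technical.

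As background, kinases that sense amino acid shortage, protein misfolding in the endoplasmic reticulum or other stress phosphorylate the initiation factor eIF2. Most translation then slows while the Atf4 message is translated better, so that Atf4 protein can rise without a change in its RNA. Atf4 binds DNA with C/EBP partners and turns on amino acid transporters, tRNA synthetases, the enzymes that make serine from a glycolytic intermediate, and the mitochondrial enzymes that pass the carbon of serine to folate. In growing cells these enzymes can serve nucleotide and amino acid synthesis, and their use was not measured here.

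The ES cell marker Pou5f1 lay between 873 and 1625 intensity units over the 16 arrays. The feeder marker Col1a1 lay between 15.2 and 198 and the primitive endoderm marker Gata6 between 8.34 and 52.2. Of 10 tested p53 target genes, 6 rose at 2 h and 8 at 24 h in each genotype. At 2 h 0.107% of all probe sets passed the test described below in KO and 0.147% in WT cells. At 24 h 5.01% of all rose in KO and 5.37% in WT cells. The arrays had been scaled by the authors to a trimmed mean of about 100. The array medians ran from 26.7 to 37.4 intensity units. The 18S control signal was above 300 on 2 arrays, KO 2 h replicate 2 and WT growing replicate 1. Values below are intensities in these scaled units, and changes are differences of log2(intensity + 16) ± SE, which understate the change of dim genes. Adjusted p-values come from limma with Benjamini-Hochberg adjustment over the 17736 probe sets, and a change is said to have passed where that p was under 0.05. Where a gene has several probe sets, the brightest stands for it unless another is named.

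At 24 h the mitochondrial folate genes Mthfd2 and Shmt2 and the serine synthesis gene Psat1 fell in both genotypes. Phgdh fell in KO cells, and in WT cells 1 of its 4 probe sets fell and the brightest did not pass. Psph, Asns and Atf4 did not pass in either. In KO cells 8 of the 21 tested probe sets, from Mthfd2, Shmt2, Psat1 and Phgdh, fell and 0 rose, where 8.02% of all tested probe sets were called, 3.02% as falls and 5.01% as rises. In WT cells 8 of the 21, from the same 4 genes and Trib3, fell and 0 rose, where 8.61% of all were called, 3.24% as falls and 5.37% as rises. Several of these probe sets belong to the same gene, and the genes were chosen with earlier results of these data known. The counts are a description, and the genes were not tested as a set. The median change of the 10 genes was -0.46 in KO cells, with a range of -0.996 to 0.28, against 0.11 over all tested genes. In WT cells it was -0.49, with a range of -1.37 to 0.88, against 0.04 over all tested genes. These RNAs come from bulk samples, in which fewer cells of a type and less RNA per cell cannot be told apart.

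Mthfd2, the mitochondrial methylenetetrahydrofolate dehydrogenase, had the largest fall of the 10 genes in WT cells and, with Shmt2, in KO cells. Its intensity was 517, 494 and 653 in the 3 KO growing samples, 589, 462 and 583 in those of 2 h, and 282 and 256 in those of 24 h. The WT samples had 355, 489 and 424 during growth, 548, 434 and 478 at 2 h, and 177 and 131 by 24 h. In each genotype the 24 h samples lay below every growing and every 2 h sample. The 24 h mean was 48.5% of the growing mean in KO cells (-0.99 ± 0.17, adjusted p = 0.00222) and 36.4% in WT cells (-1.37 ± 0.17, adjusted p = 0.000138). The gene's other probe set, 1419253_at, changed by -1.37 ± 0.16 in KO and -1.38 ± 0.16 in WT cells (adjusted p = 0.000116 and 8.13e-05 by limma).

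Shmt2, the mitochondrial serine hydroxymethyltransferase that hands a carbon of serine to folate, fell to a like extent. It stood in KO cells at 651, 459 and 685 during growth, 628, 477 and 568 at 2 h, and 273 and 303 by 24 h. The WT values were 568, 605 and 499 during growth, 709, 535 and 599 at 2 h, and 249 and 240 by 24 h. Again no 24 h sample overlapped its growing group. The change was -0.996 ± 0.17 in KO (adjusted p = 0.00202) and -1.14 ± 0.17 in WT cells (adjusted p = 0.00052). A second probe set, 1426423_at, also fell in both, by 1.12 ± 0.20 in KO and 1.12 ± 0.20 in WT cells (adjusted p = 0.0024 and 0.00178 by limma). The KO call of that probe set was lost without KO 24 h replicate 1. The brightest probe set, 1455084_x_at, and the 2 others are of a kind marked for possible cross-hybridisation, and 1426423_at is not. The 2 others did not pass: 1455985_x_at changed by -0.19 in KO and -0.58 in WT cells, and 1434204_x_at, which passed the filter on low values in 5 of 6 groups, by -0.95 in KO and 0.06 in WT cells.

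**Figure D1:**
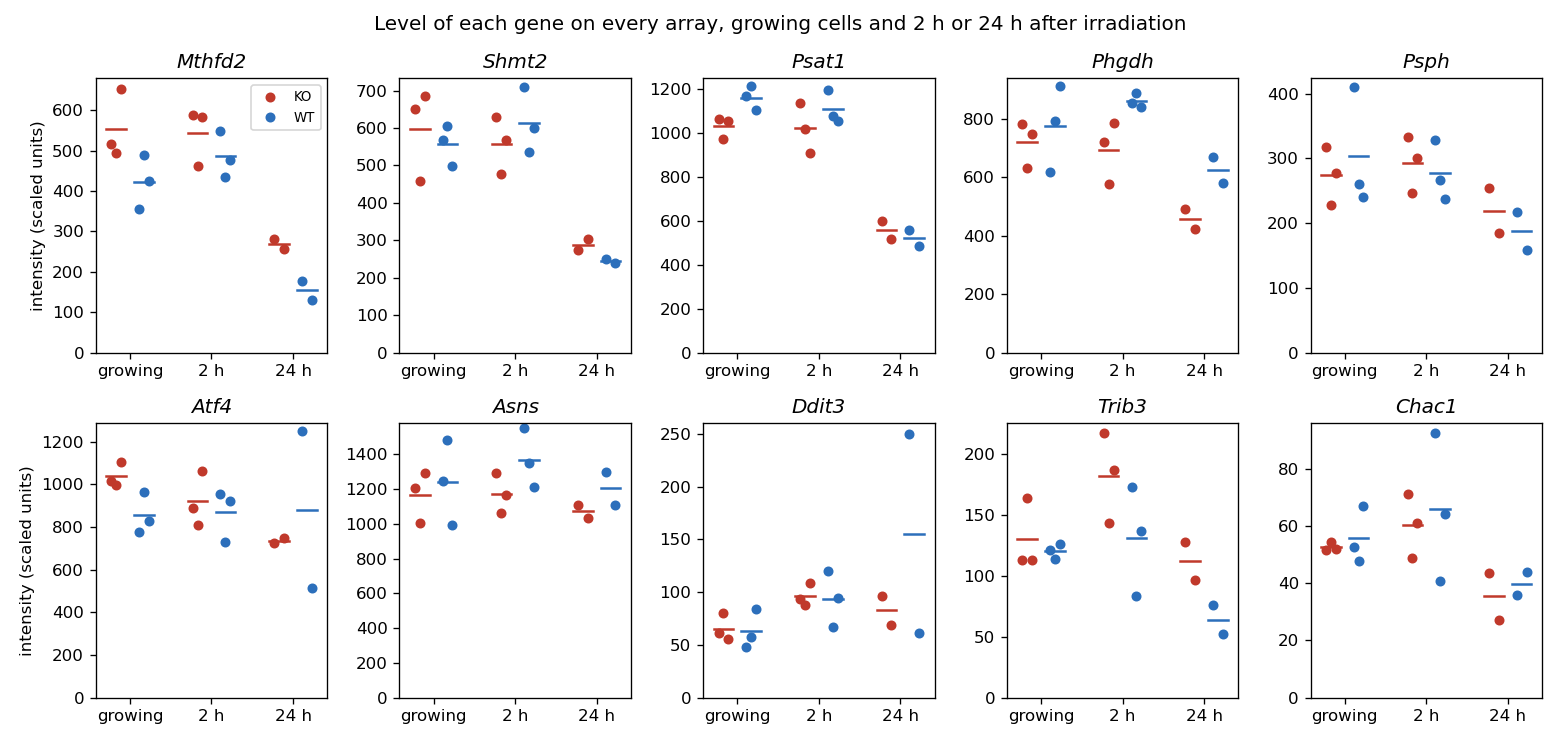
Scaled intensity of the brightest probe set of the 10 genes on a linear axis from 0, 1 panel per gene and 1 point per array, by state (growing, 2 h, 24 h), with KO in red left of WT in blue and bars at the group means. Mthfd2, Shmt2 and Psat1 lie lower at 24 h in both genotypes, and for Ddit3 and Atf4 the 2 WT 24 h arrays lie far from each other.

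Of the serine synthesis enzymes, Psat1, the aminotransferase of the second step, fell most. Its intensity in KO cells was 1067, 972 and 1055 during growth, 1139, 1021 and 911 at 2 h, and 601 and 518 by 24 h. For WT cells it was 1171, 1214 and 1104 during growth, 1199, 1081 and 1057 at 2 h, and 561 and 487 by 24 h. The 4 values at 24 h lay below all 12 others. The 24 h mean was 54.2% of the growing mean in KO cells (-0.87 ± 0.13, adjusted p = 0.00086) and 45.1% in WT cells (-1.13 ± 0.13, adjusted p = 8.09e-05). The other probe set, 1454607_s_at, fell in WT cells (-0.81 ± 0.18, adjusted p = 0.00791) and changed by -0.46 in KO cells (adjusted p = 0.111 by limma).

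Phgdh, the dehydrogenase that opens the pathway, had 4 tested probe sets, all marked for possible cross-hybridisation. In KO cells 3 of the 4 fell and in WT cells 1 did. Probe set 1437621_x_at passed in both: it read in KO cells 451, 416 and 438 during growth, 469, 385 and 402 at 2 h, and 302 and 247 by 24 h. The WT values were 509, 531 and 512 during growth, 548, 517 and 546 at 2 h, and 375 and 380 by 24 h. The 24 h samples lay below the others of their genotype. The change was -0.64 ± 0.12 in KO (adjusted p = 0.00483) and -0.44 ± 0.12 in WT cells (adjusted p = 0.0345). The WT call of this probe set held in 17 of 29 alternative settings. The brightest, 1454714_x_at, fell in KO cells (-0.64 ± 0.16, adjusted p = 0.0239) and changed by -0.29 in WT cells (adjusted p = 0.312 by limma). Its KO call held in 23 of 29 alternatives and that of 1426658_x_at in 24 of 29. Each was lost on leaving out KO 24 h replicate 1 or 2, KO growing replicate 1 or 3, or the second hybridisation day. Psph, the phosphatase of the last step, did not pass, with a change of -0.30 in KO and -0.63 in WT cells (adjusted p = 0.408 and 0.0811 by limma). With the experiment number as a block it passed in WT cells (adjusted p = 0.00613 by limma). Its values at 24 h were 254 and 185 in KO and 217 and 158 in WT cells. While growing they were 317, 228 and 278 in KO and 411, 260 and 240 in WT cells, so the KO groups overlapped and the WT groups did not.

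**Figure D2:**
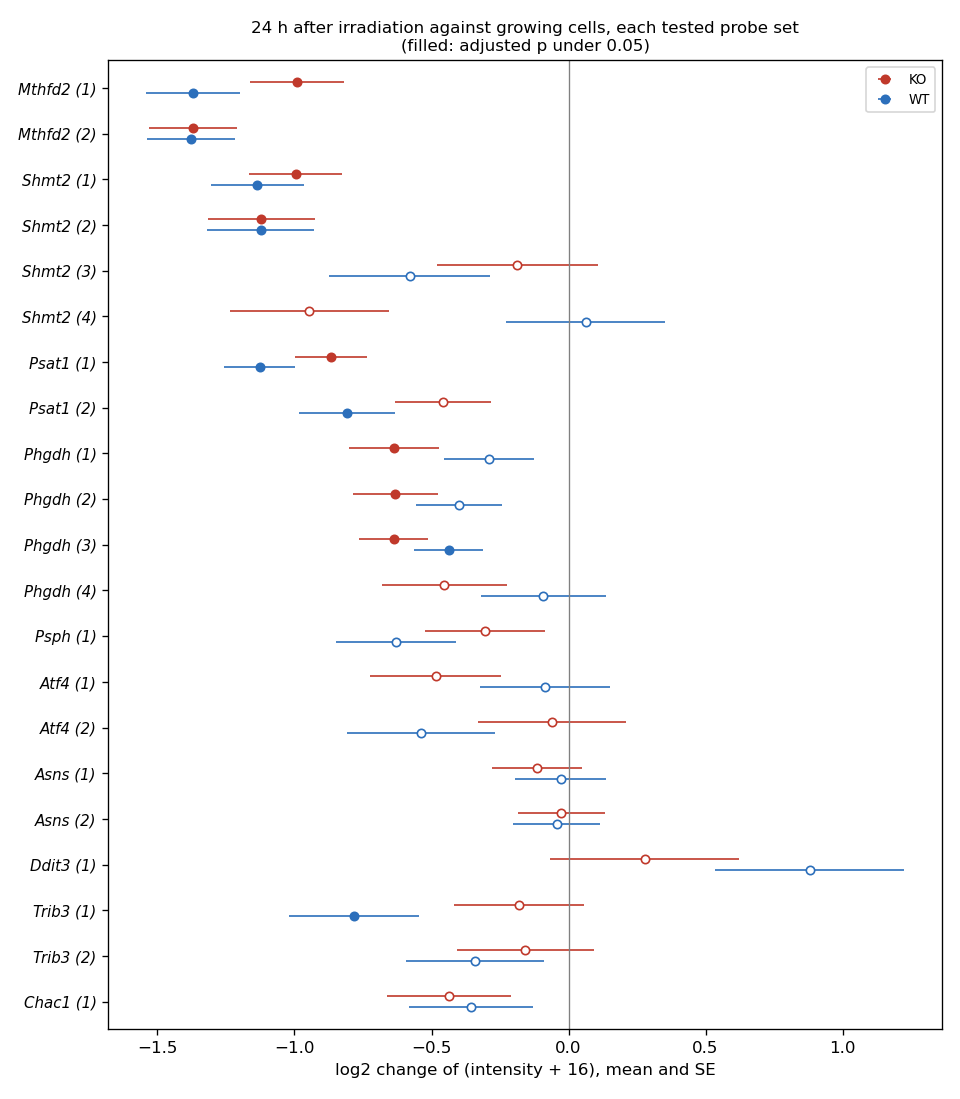
Change at 24 h against growing cells in log2(intensity + 16), 1 row per tested probe set, with KO in red above WT in blue and bars of 1 SE. Numbers in brackets count a gene's probe sets from the brightest, and filled points have an adjusted p under 0.05. Both Mthfd2 probe sets, 2 of Shmt2 and the brightest of Psat1 are filled in both genotypes, and those of Asns lie between -0.12 and -0.03.

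Hybridisation run gave the comparison a second form, since growing and 24 h samples of 1 genotype shared a run once each. These were KO growing replicate 2 with KO 24 h replicate 2, and WT growing replicate 1 with WT 24 h replicate 1. The same arrays are in the main fit, and WT growing replicate 1 has an 18S signal above 300. Within the shared run Mthfd2 changed by -0.90 in KO and -0.94 in WT cells. Shmt2 changed by -0.57 in KO and -1.14 in WT cells, and Psat1 by -0.89 in KO and -1.04 in WT cells. Each value rests on 1 array per state. The brightest Phgdh probe set changed by -0.57 in KO cells and by 0.11, the other way, in WT cells, and 1437621_x_at by -0.71 in KO and -0.43 in WT cells. The summed intensity of 13 primitive endoderm markers was 2025 to 2369 in KO cells at 24 h and 1399 to 1563 in KO growing cells, and in WT cells it was 1596 to 2028 at 24 h and 914 to 1344 while growing. Of these 13, 1 rose in KO and 2 in WT cells, where 5.01% of all probe sets rose in KO and 5.37% in WT cells. The sum of 18 feeder markers was 3861 to 4810 in KO at 24 h and 3180 to 4466 in KO growing cells. In WT cells it was 4337 to 4383 at 24 h and 2361 to 5752 during growth, with 1 marker of 18 called in WT (Fn1) and 0 in KO cells. The sum of 13 pluripotency markers was 11019 to 13002 in KO at 24 h and 11600 to 13396 in KO growing cells. In WT cells it was 11419 to 12472 at 24 h and 12251 to 13084 while growing. Of these pluripotency markers 1 fell in KO and 2 in WT cells, where 3.02% of all probe sets fell in KO and 3.24% in WT cells. The change was below 0 for 11 of the 13 in KO and 10 of the 13 in WT cells. No defining marker was listed at 0, which does not show that its cells were present. Gata6 went down to 8.34 and Sox17 to 7.21 intensity units, below the filter on low values at 11.9. The part of these marker cell types in the fall of Mthfd2, Shmt2 and Psat1 was not tested.

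Atf4 itself showed no change that passed at 24 h, and its 2 tested probe sets disagreed. The brightest stood at 70.9% of its growing mean in KO and 103% in WT cells. The other, 1438992_x_at, stood at 101% in KO and 65.2% in WT cells. It is of the kind marked for possible cross-hybridisation and was dimmer, with 100 to 270 units over the 16 arrays. The intensity of the brightest in KO cells was 1015, 996 and 1105 during growth, 889, 808 and 1062 at 2 h, and 723 and 750 by 24 h. In WT cells the values were 775, 962 and 829 during growth, 955, 729 and 921 at 2 h, and 1249 and 512 by 24 h. The WT 24 h pair held both the highest and the lowest of the 16 values, and the KO 24 h pair lay below the KO growing samples. The change was -0.49 ± 0.24 in KO (adjusted p = 0.213) and -0.09 ± 0.24 in WT cells (adjusted p = 0.881). Without WT 24 h replicate 1 the WT change was -0.72 (adjusted p = 0.0616 by limma), and without replicate 2 it was 0.54 (adjusted p = 0.0817).

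Asns, which makes asparagine and is a classical target of Atf4, stayed near its growing level. It read in KO cells 1208, 1008 and 1292 during growth, 1291, 1064 and 1167 at 2 h, and 1111 and 1035 by 24 h. The WT values were 1249, 1484 and 993 during growth, 1551, 1348 and 1213 at 2 h, and 1299 and 1110 by 24 h. All neighbouring groups in the order of means overlapped. The 24 h change was -0.12 in KO (95% interval -0.46 to 0.23) and -0.03 in WT cells (95% interval -0.38 to 0.32).

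Among the stress genes, Trib3, a pseudokinase that can restrain Atf4, fell in WT cells. In KO cells its values were 113, 164 and 113 during growth, 217, 143 and 187 at 2 h, and 128 and 96.3 by 24 h. Those of WT cells were 121, 114 and 126 during growth, 173, 83.3 and 137 at 2 h, and 75.8 and 52.2 by 24 h. The WT 24 h samples were the lowest 2 of the 16. The change was -0.78 ± 0.24 in WT (adjusted p = 0.0453) and -0.18 in KO cells (adjusted p = 0.676). The WT call held in 13 of 29 alternative settings. The second Trib3 probe set, 1456225_x_at, did not pass, with -0.16 in KO and -0.34 in WT cells (adjusted p = 0.739 and 0.457 by limma).

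Ddit3, which encodes the pro-apoptotic factor CHOP, was dim and rested on 1 array at 24 h in WT cells. The KO values were 60.8, 80.2 and 55.2 during growth, 93.5, 87.9 and 109 at 2 h, and 96.8 and 68.8 by 24 h. In WT cells they were 48.0, 57.7 and 83.8 during growth, 120, 66.5 and 94.6 at 2 h, and 250 and 61.0 by 24 h. The change at 24 h was 0.28 ± 0.34 in KO (adjusted p = 0.658) and 0.88 ± 0.34 in WT cells (adjusted p = 0.127). Without WT 24 h replicate 1 the WT change was -0.01 (adjusted p = 0.99 by limma), and without replicate 2 it was 1.77 (adjusted p = 0.00128). Chac1, which degrades glutathione, was dim as well, with 43.5 and 27.2 in KO and 35.7 and 43.9 in WT cells at 24 h. It had 51.6, 54.3 and 51.9 in KO and 52.5, 47.6 and 66.9 in WT growing cells, above its 24 h values in each genotype. The Chac1 change did not pass (-0.44 in KO, adjusted p = 0.24, and -0.36 in WT cells, adjusted p = 0.378, by limma).

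Promoter sequence is shown for 5 of the genes, chosen by their change at 24 h. Mthfd2, Shmt2 and Psat1 fell, Asns stayed near its level, and Chac1 lay lower but did not pass. Genes chosen in this way cannot show whether a motif goes with the fall. The sequences are the 250 bases before the annotated start, 5′ to 3′ on the gene's strand, from RefSeq on GRCm38.p6. Capitals mark the C/EBP-ATF response element, searched as TGATGNAA, and the CCAAT box, searched as CCAAT, on both strands. The motifs were chosen after the values were seen.
Mthfd2 (chr6:83317605-83317854, minus strand): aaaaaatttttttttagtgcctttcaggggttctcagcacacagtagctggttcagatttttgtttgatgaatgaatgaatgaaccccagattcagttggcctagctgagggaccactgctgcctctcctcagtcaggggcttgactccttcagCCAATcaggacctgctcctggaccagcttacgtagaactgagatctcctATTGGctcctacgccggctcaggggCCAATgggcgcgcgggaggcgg
Shmt2 (chr10:127522445-127522694, minus strand): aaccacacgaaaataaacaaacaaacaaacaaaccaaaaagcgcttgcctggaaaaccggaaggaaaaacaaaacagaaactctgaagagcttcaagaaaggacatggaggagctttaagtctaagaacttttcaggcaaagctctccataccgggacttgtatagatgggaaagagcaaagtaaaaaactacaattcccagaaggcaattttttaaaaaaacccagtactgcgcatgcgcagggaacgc
Psat1 (chr19:15925060-15925309, minus strand): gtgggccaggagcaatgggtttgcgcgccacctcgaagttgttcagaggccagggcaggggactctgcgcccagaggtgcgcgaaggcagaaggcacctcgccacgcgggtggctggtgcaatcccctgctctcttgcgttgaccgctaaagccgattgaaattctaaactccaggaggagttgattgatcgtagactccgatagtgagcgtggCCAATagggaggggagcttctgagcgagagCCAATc
Asns (chr6:7693210-7693459, minus strand): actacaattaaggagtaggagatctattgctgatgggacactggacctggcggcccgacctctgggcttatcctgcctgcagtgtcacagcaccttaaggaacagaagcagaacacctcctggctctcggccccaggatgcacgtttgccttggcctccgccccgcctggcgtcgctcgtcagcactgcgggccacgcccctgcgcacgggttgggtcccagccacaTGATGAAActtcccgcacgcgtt
Chac1 (chr2:119350992-119351241, plus strand): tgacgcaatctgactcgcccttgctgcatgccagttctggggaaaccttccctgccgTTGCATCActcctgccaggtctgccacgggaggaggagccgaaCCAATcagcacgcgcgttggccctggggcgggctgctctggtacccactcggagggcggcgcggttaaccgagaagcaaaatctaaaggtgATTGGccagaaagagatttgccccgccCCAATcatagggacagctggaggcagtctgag

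All 10 genes had a promoter entry, with 11 windows in all because Psat1 has 2 start sites. In windows of 250 bases before to 50 after the start, the C/EBP-ATF response element was found for Asns, Chac1 and Trib3, so for 3 of 10 genes, against 3.97% of all windows and 2.33% of those of tested genes. The match in Asns begins 23 bases before the start and that in Chac1 193 bases before it, on the opposite strand. The match in Trib3, which fell in WT cells, lies past the start, at position 15, and so outside the stretch shown for other genes. The CCAAT box was found for 7 of 10 genes (Atf4, Psat1, Phgdh, Psph, Mthfd2, Chac1 and Ddit3) and in 37.4% of all windows. Neither the cyclic AMP element TGACGTCA nor the E-box CACGTG was found in the 11 windows. They occur in 1.79% and 7.15% of all windows. No match overlapped one of another motif. These are matches of letters and were not measured as binding.

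At 2 h none of the 10 genes passed. Called probe sets numbered 0 of 21 in KO cells, where 0.107% of all were called, and 0 of 21 in WT cells, where 0.147% were called. At an unadjusted p under 0.05 there were 0 in KO cells (7.98% of all) and 1 in WT cells (8.1% of all), the second Atf4 probe set, 1438992_x_at (-0.61, adjusted p = 0.544 by limma). The median change of the 10 genes was -0.003 in KO and 0.14 in WT cells, against 0.04 in KO and -0.04 in WT cells over all tested genes. Mthfd2 changed by -0.02 in KO (95% interval -0.34 to 0.30) and 0.20 in WT cells (95% interval -0.12 to 0.52). Ddit3 changed by 0.48 in KO (95% interval -0.17 to 1.12) and 0.47 in WT cells (95% interval -0.18 to 1.11), and the 3 KO 2 h samples lay above the 3 KO growing samples. Among 15 tested stress and transcription targets of Atf4, 2 rose at 2 h in each genotype. Ddit4, an inhibitor of mTORC1, changed by 1.45 in KO and 1.21 in WT cells (adjusted p = 0.000562 and 0.00304 by limma). Sesn2, a leucine sensor upstream of mTORC1, changed by 0.76 in KO and 0.78 in WT cells (adjusted p = 0.0289 and 0.0158 by limma). Both are also p53 targets and stood on the list used to check irradiation. Without any 1 of the 6 KO growing and 2 h arrays the KO count was 1, as was the WT count without WT growing replicate 1 or WT 2 h replicate 1 or 2, and both counts were 0 without the second hybridisation day. The Sesn2 call held in 18 of 29 alternatives in KO cells, being lost also with the hybridisation run as a block, with arrays centred on their median and with eBayes without trend, and in 22 of 29 in WT cells. The Ddit4 call held in 28 of 29 in each genotype.

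Between KO and WT cells of the same state no probe set of the 10 genes passed. Called were 0 of 21 in growing cells (0.248% of all tested), 0 of 21 at 2 h (0.395%) and 0 of 21 at 24 h (0.062%). At an unadjusted p under 0.05 there were 3, 3 and 5 of 21, where 10.6%, 14.9% and 9.59% of all probe sets were. Averaged over the 3 states, 2 of 21 were called, where 4.13% of all were, 1 as higher in KO cells (2.01% of all) and 1 as lower (2.12%). Mthfd2 was higher in KO cells by 0.43 ± 0.10 (adjusted p = 0.0151). Its mean was 555 ± 85.8 in KO and 423 ± 67.2 in WT growing cells (SD, n = 3 each), 545 ± 71.6 in KO and 487 ± 57.7 in WT cells at 2 h (SD, n = 3 each), and 269 ± 18.2 in KO and 154 ± 32.5 in WT cells at 24 h (SD, n = 2 each). The groups overlapped at 2 h, with a difference of 0.16 (adjusted p = 0.672 by limma), and did not overlap in growing cells or at 24 h. The other Mthfd2 probe set differed by 0.25 (adjusted p = 0.13 by limma). Within the runs that held both genotypes the Mthfd2 difference was 0.52 and 0.60 in growing cells, 0.43 and 0.28 at 2 h, and 0.89 at 24 h.

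Phgdh probe set 1437621_x_at was lower in KO cells by the mean over the 3 states (-0.35 ± 0.07, adjusted p = 0.00746), and its KO and WT samples did not overlap in any state. The other Phgdh probe sets differed by -0.28, -0.13 and -0.17, with none passing. Trib3 differed by 0.41 ± 0.13 (adjusted p = 0.089) and Asns by -0.15 (95% interval -0.34 to 0.04). The 2 tested Atf4 probe sets went opposite ways in growing cells, and neither passed. The KO mean was 121% of the WT mean for the brightest and 68.6% for 1438992_x_at, the dimmer one, marked for possible cross-hybridisation. Neither the Mthfd2 nor the Phgdh call held without the second hybridisation day (0.37 with adjusted p = 0.133 for Mthfd2, and -0.34 with adjusted p = 0.09 for Phgdh, by limma). Of 13 primitive endoderm markers, 6 were higher in KO cells by the mean over the 3 states, where 2.01% of all probe sets were. Of 13 pluripotency markers 4 were lower, where 2.12% of all were. The part of these markers in the Mthfd2 and Phgdh differences was not tested.

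**Figure D3:**
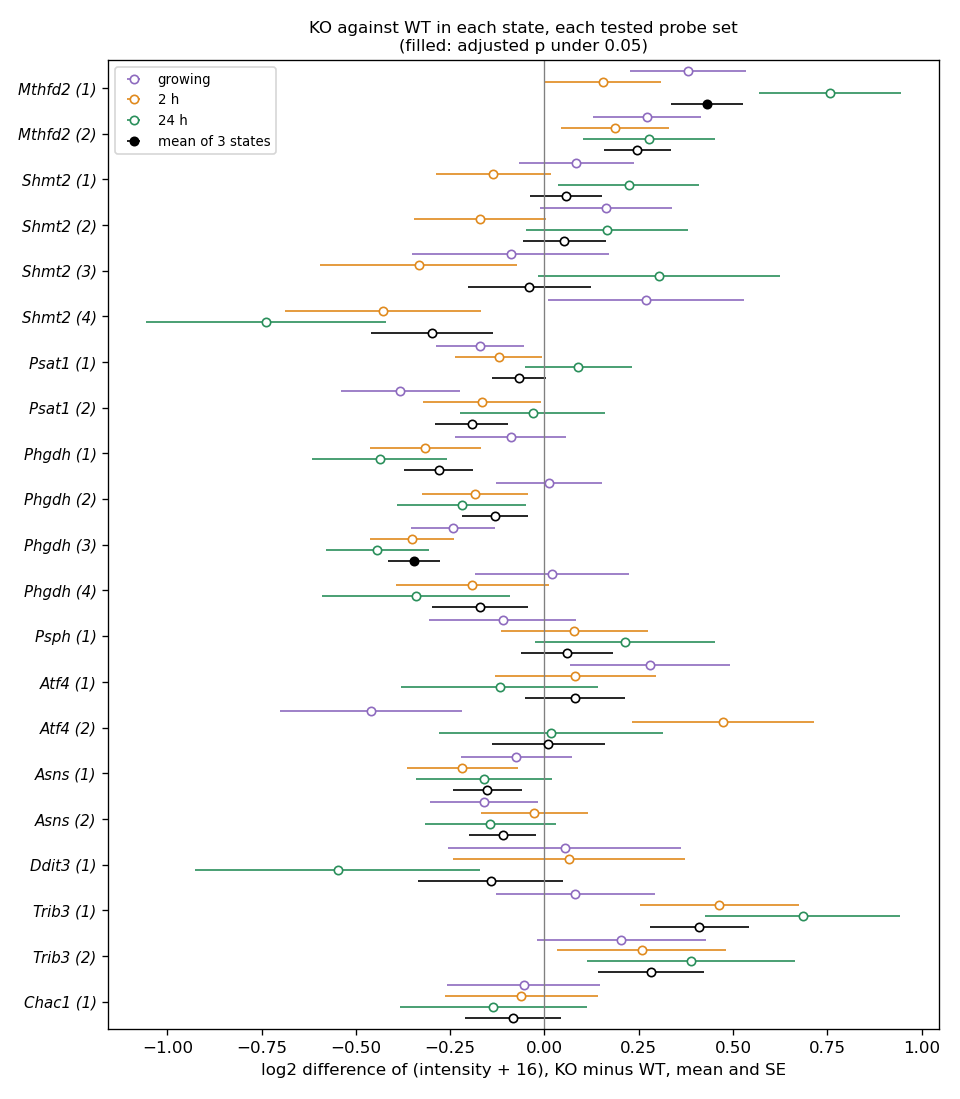
Difference KO minus WT in log2(intensity + 16) of each tested probe set in the growing, 2 h and 24 h groups and as the mean of the 3 states, with bars of 1 SE and probe sets numbered from the brightest. The 2 filled points, with an adjusted p under 0.05, are the means over states of the brightest Mthfd2 probe set (0.43) and of 1 Phgdh probe set (-0.35).

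No difference between the genotypes in the change after irradiation passed for the 10 genes. The genotype-by-irradiation interaction was called for 0 of 21 probe sets at 2 h and 0 of 21 at 24 h, and for 0% of all tested at both times. At an unadjusted p under 0.05 there was 1 of 21 at each time, where 9.94% of all were at 2 h and 4.8% at 24 h. The difference between the KO and WT change at 24 h was 0.38 for Mthfd2 (95% interval -0.13 to 0.89), 0.14 for Shmt2 (95% interval -0.37 to 0.64) and 0.26 for Psat1 (95% interval -0.12 to 0.65). For Phgdh it was -0.35 (95% interval -0.84 to 0.14) and for Trib3 0.60 (95% interval -0.10 to 1.30).

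Other genes of the pathway were read from lists, which were also chosen with earlier results of these data known. Each list gene is counted by its brightest tested probe set, while the shares beside the counts are over all tested probe sets. Of 19 tested tRNA synthetase genes, counted with the tRNA exporter Xpot, 7 fell in KO and 9 in WT cells at 24 h, and 0 rose. The median was -0.48 in KO and -0.49 in WT cells, and the share of all probe sets that fell was 3.02% in KO and 3.24% in WT cells. Xpot changed by -0.82 in KO and -0.91 in WT cells, Sars by -0.81 in KO and -0.82 in WT cells, and Tars by -0.74 in KO and -0.84 in WT cells, and each passed in both. Farsb fell in KO cells (-0.78) and Iars in WT cells (-0.76). The KO count was 1 without KO 24 h replicate 1, 3 when KO growing replicate 1 was left out, 4 with replicate 3 of that group left out, and 13 with arrays centred on their median. The WT count was 4 without WT 24 h replicate 2, without the second hybridisation day, or with only the groups compared in the fit.

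Genes for proline synthesis and transamination gave 4 of 8 falls in each genotype and 0 rises. The change was above 0 for 1 of the 8 in KO and 4 of the 8 in WT cells. Aldh18a1, the first enzyme of proline synthesis, averaged 93.2 ± 34.9 in KO cells at 24 h and 219 ± 36.2 in KO growing cells, and 74.5 ± 7.03 in WT cells at 24 h and 223 ± 10.7 in WT growing cells (SD, n = 2 at 24 h and 3 while growing). Its change was -1.13 in KO and -1.40 in WT cells (adjusted p = 0.00093 and 0.000135 by limma). Pck2, the mitochondrial PEP carboxykinase, changed by -0.92 in KO and -1.17 in WT cells, the glutamine synthetase gene Glul by -0.77 in KO and -0.88 in WT cells, and the transaminase gene Gpt2 by -0.63 in KO and -0.89 in WT cells. The KO count was 1 without KO growing replicate 1 or without the second hybridisation day. It was 2 without KO growing replicate 3 or KO 24 h replicate 2. The WT count was 2 without WT 24 h replicate 1. Of 10 amino acid transporters 2 fell in each genotype and 0 rose. For both lists the share of all probe sets that fell was 3.02% in KO and 3.24% in WT cells. Slc7a5, the large neutral amino acid transporter, changed by -1.12 in KO and -1.31 in WT cells, and the cationic transporter Slc7a3 by -1.03 in KO and -1.45 in WT cells. Without KO 24 h replicate 1 the KO count was 1.

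For the remaining lists, the counts are to be read against all probe sets, of which 5.01% rose and 3.02% fell in KO cells and 5.37% rose and 3.24% fell in WT cells. Of 25 listed serine, glycine and folate enzymes outside the 10 genes, only 12 were tested. Of these 12, 2 rose in KO cells, and 3 rose and 1 fell in WT cells. Aldh1l1, a cytosolic folate dehydrogenase, changed by 1.36 in KO and 1.90 in WT cells, and Cbs, which condenses serine with homocysteine, by 0.80 in KO and 1.09 in WT cells. Cth, the next enzyme, fell by 0.87 and Mthfd1 rose by 0.63 in WT cells. The KO count was 0 without KO 24 h replicate 1 and 1 without KO growing replicate 1, and the WT count was 2 without WT 24 h replicate 1. Of 15 stress and transcription targets, 2 rose in KO cells, and 3 rose and 1 fell in WT cells. Ddit4 changed by 2.07 in KO and 2.02 in WT cells and the transcription factor Atf3 by 1.27 in KO and 1.24 in WT cells, while in WT cells Gadd45a rose by 1.10 and Atf5 fell by 0.74. That WT count of 4 was 1 without WT 24 h replicate 1, and 2 without WT 24 h replicate 2, WT growing replicate 1 or KO growing replicate 2. The KO count was 1 without KO 24 h replicate 1, any 1 KO growing array or the second hybridisation day. Other settings that gave 1 were quantile normalization, arrays centred on their median, eBayes without trend, no filter on low values and a pseudocount of 1. Of 13 genes of eIF2 control, 0 were called in KO cells and 1 in WT cells (Eif2b4, -0.54). Of 18 endoplasmic reticulum chaperone genes 1 rose in each, Hsp90b1 in KO (0.56) and Edem1 in WT cells (0.91). That is 5.56% of the list, where 5.01% of all probe sets rose in KO and 5.37% in WT cells. The eIF2 count in WT cells was 0 without WT 24 h replicate 1 or WT growing replicate 1 or 3, and 3 genes were called without WT growing replicate 2. That count was also 0 without the second hybridisation day, with the hybridisation run as a block, with array weights or with only the groups compared. The chaperone count was 0 without KO 24 h replicate 1 or KO growing replicate 3 in KO cells and without WT 24 h replicate 1 in WT cells, and 3 in KO and 2 in WT cells without the other 24 h array. The KO chaperone count was also 0 without the second hybridisation day and with arrays centred on their median.

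**Figure D4:**
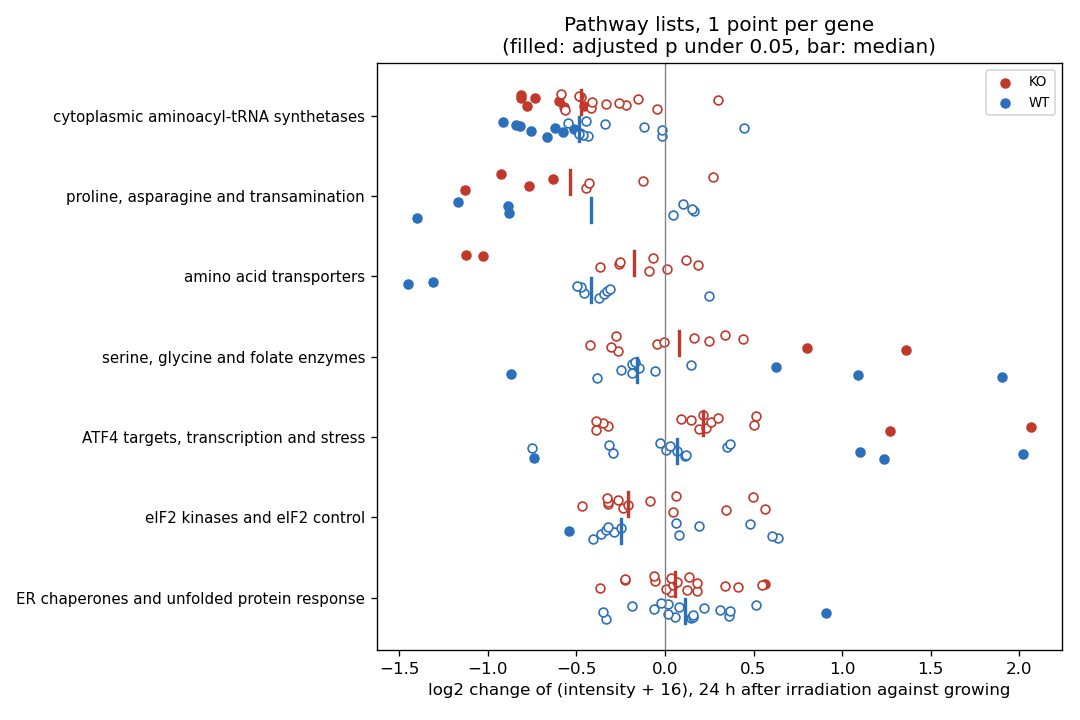
Change at 24 h against growing cells in log2(intensity + 16) for the genes of 7 pathway lists, 1 point per gene, KO in red above WT in blue, with a bar at each list's median. Filled points have an adjusted p under 0.05. The medians of tRNA synthetases lie at -0.48 in KO and -0.49 in WT cells, and the stress and transcription list has filled points above 0 in both.

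Between KO and WT cells 0 of the 95 tested genes of these 7 lists were called in any single state, where 0.248% of all probe sets were called for growing cells, 0.395% for the 2 h groups and 0.062% for the 24 h groups. At 2 h, 1 serine, glycine and folate gene and 1 eIF2 gene were called with the hybridisation run as a block or with the replicate block, and 1 eIF2 gene with array weights. By the mean over the 3 states 6 of the 95 genes were called, 6.32%, where 4.13% of all probe sets were. By the mean over the 3 states Atf5 (0.57, adjusted p = 0.0117) and Cebpb (0.34, adjusted p = 0.0384), both basic leucine zipper factors, were higher in KO cells by limma. Ppp1r15b, a subunit that directs a phosphatase to eIF2, was higher by 0.42 (adjusted p = 0.00602 by limma), and the chaperone Calr by 0.35 (adjusted p = 0.02). Impact, an inhibitor of the eIF2 kinase Gcn2, differed by -0.39 (adjusted p = 0.0312), and Hars by -0.37 (adjusted p = 0.0243). Of 28 alternatives the call held in 28 for Atf5, 27 for Ppp1r15b, 26 for Calr, 21 for Hars, 16 for Impact and 14 for Cebpb.

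Over the 16 arrays the gene most like Mthfd2 in log2 intensity was Aars, the alanyl-tRNA synthetase (Pearson r = 0.94). The most like Psat1 was Aldh18a1 (r = 0.96), the most like Shmt2 was Chd1l (r = 0.97), and the most like Phgdh was Use1 (r = 0.90). For Psph it was Spcs2 (r = 0.87), for Trib3 Slc51a (r = 0.89), for Ddit3 Derl3 (r = 0.85) and for Chac1 Tor1aip1 (r = 0.87). The 5 most like Atf4 were Tmem223 (r = 0.92), Ash2l, Timm17a, Rita1 and 2610005L07Rik (r = 0.81 to 0.79). The 5 most like Asns were Hexim1 (r = 0.88), Gtf2i, Polr2e, Mrps31 and Sec11a (r = 0.86 to 0.81). None of these is 1 of the 10 genes. The values describe arrays that share groups and scaling.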

How the data were processed

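Total RNA of 16 ES cell samples was hybridised to 1 array each. The deposited values are intensities, 1 per probe set, on a linear scale. The authors had scaled each array to a trimmed mean of about 100, as the values show, and no source used here names the summary software. The other files hold instrument settings, per the file headers, and gave the 4 hybridisation runs. Probe sets with 1 gene symbol in the platform annotation were named, and 2 Phgdh probe sets that also carry a pseudogene symbol were not used.

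The scale was log2(intensity + 16), and limma 3.58.1 ran in R 4.3.3. Probe sets entered if 1 or more group means lay above the 30th percentile of the data (4.80, an intensity of 11.9), and of the 21 here 20 lay above it in all 6 groups. One model with 6 group means was fitted (eBayes with trend, 10 residual and 8.55 prior degrees of freedom) for 10 comparisons, checked on simulated data. Tests were two-sided, with Benjamini-Hochberg adjustment. The 10 genes were always named. From each pathway list the genes that passed were named, at most the 4 largest, and for likeness the highest Pearson r. The genes and lists were chosen with earlier results of these data known. The targeted gene's own signal is not reported here, and genotype labels were taken as given. With 2 or 3 arrays per group, the number of arrays limits precision. Alternatives covered pseudocount, filter, scaling, weights, blocks and left-out arrays.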

Additional observations from a re-analysis of the deposited data

How the results depend on the processing

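Of the 578 values recomputed for counts of called probe sets and for medians over the 10 genes, 569 stayed within 1 SD (medians) or 1.5 times (counts). Of the 289 counts, 203 are counts of 0 that were 0 in every setting, so they show little. Of the 289 medians, 47 changed sign, all in comparisons whose main median lay between -0.0746 and 0.1416, and none in those of 24 h against growing. For KO against WT at 24 h the median was 0.2975 without WT 24 h replicate 1 (leaving out 1 array, -0.0541 to 0.2975). For the mean over the states the count of 2 was 0 without the second hybridisation day. For 24 h against growing, leaving out 1 array gave counts of 5 to 9 in KO cells (5 without KO 24 h replicate 1) and 5 to 8 in WT cells (5 without WT 24 h replicate 1), and medians of -0.5926 to -0.3578 in KO and -0.7792 to -0.4215 in WT cells. Centring arrays on their median put the KO median at -0.669 and the interaction median at 2 h at -0.2711, and it put the median of all genes at -0.1005 in place of 0.1126 for the KO change at 24 h and at -0.1407 in place of 0.0604 for the interaction at 2 h. The interaction median at 24 h was 0.2263 without the second hybridisation day and -0.0496 to 0.2613 with 1 array left out. The experiment numbers were not fitted as pairs in the main model. Deviations of 21 of 36 same-number pairs correlated above 0.1 (median 0.119), against 1 of 70 pairs of different numbers (median -0.0569). The deviations were taken from group means and cancel within a group. The values for different numbers are therefore partly set by those for the same number and are not an independent comparison. By the same-number values, samples of 1 number shared some variation, for which the main p-values do not account. With the replicate block, the counts were 8 in KO and 9 in WT cells at 24 h, 3 for the mean over the states and 0 elsewhere, and Psph passed in WT cells (adjusted p = 0.00613 by limma). With the hybridisation run as a block they were 8 in KO and 7 in WT cells at 24 h, 2 for the mean over the states and 0 elsewhere. List counts under each alternative were added after seeing the data. The causes of these moves were not tested. The 2 arrays per 24 h group limit every value at that time.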
